A study of Mus musculus with 12 samples.

Results

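The BCL2 family sets whether a cell keeps its mitochondria intact or enters apoptosis. Its 10 members described here were taken by Ensembl identifier from 55487 genes measured in injured mouse cortex. Pro-survival members (Bcl2, Bcl2l1, Mcl1, Bcl2a1b and Bcl2a1d, 5 genes) hold the pore former Bax in check. The BH3-only members (Bmf, Bcl2l11, Bbc3 and Pmaip1) are induced or released by stress and bind the pro-survival proteins, which frees Bax to open the outer mitochondrial membrane. Bax and the BH3-only genes are the 5 pro-death members. Several members are controlled mainly through protein stability or localisation, which RNA does not measure. In the injured brain the family has been studied for its part in the loss of neurons and in the lifespan of leukocytes.

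RNA was sequenced from cortex collected 2 hr after controlled cortical impact, in which a piston strikes the exposed brain. Cortex of the struck side (ipsilateral) and of the opposite side (contralateral) came from mice with a Cre recombinase allele in Cx3cr1, a gene of microglia and monocytes. The group called wt carried CX3CR1cre-er/+ alone. The group called cKO carried CX3CR1cre-er/+ with STING fl/fl, in which the gene of the cytosolic DNA-sensing adaptor STING is flanked by lox sites. The series text writes the Cre of the floxed animals without the tamoxifen-dependent part. No tamoxifen treatment and no age is given in the sources used here, and no uninjured animals are among the samples, so the contralateral cortex is from injured animals too. Each of the 4 groups held 3 libraries. The labels do not say that these came from separate animals, and p values then measure only the spread between libraries.

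Library totals were 20779210 to 33567194 counts in 11 libraries and 7958931 counts in cKO ipsilateral library 3. That library also held 10548 TPM of the abundant brain RNA Bc1, against 83028 to 167036 TPM in the others, so its TPM of other genes run higher. The targeted gene Tmem173, which encodes STING, was at 2.34 to 3.69 CPM in wt and 0.762 to 2.44 CPM in cKO libraries, and these ranges overlap. Markers of cortical tissue were abundant: 12 neuron markers summed to 10370 to 12650 CPM. All 10 members passed the filter on low counts, among 16836 genes tested. Bcl2a1d, with at most 7 counts in any contralateral library, passed only through its ipsilateral libraries. Levels within a gene are given in CPM, read counts divided by the scaled library total. Levels of different genes are compared in TPM, which divides by transcript length. Changes are log2 ratios ± SE, called at an adjusted p under 0.05 (edgeR quasi-likelihood test, Benjamini-Hochberg over all tested genes).

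Bcl2a1b and Bcl2a1d are copies of one ancestral gene, known from leukocytes, whose protein binds BH3-only proteins. They lie on chromosome 9 of mm10, Bcl2a1b at 89199209 to 89207827 on the plus strand and Bcl2a1d at 88723285 to 88731914 on the minus strand. Their start regions are shown because the copies moved together and are nearly the same sequence. Capitals mark matches to a loose AP-1 motif (TGANTCA, with any base at N) and to a PU.1 motif (GAGGAAGT), on either strand. The windows come from RefSeq on GRCm38.p6, chr9:89199023-89199322 on the plus strand and chr9:88731801-88732100 on the minus strand.
Bcl2a1b: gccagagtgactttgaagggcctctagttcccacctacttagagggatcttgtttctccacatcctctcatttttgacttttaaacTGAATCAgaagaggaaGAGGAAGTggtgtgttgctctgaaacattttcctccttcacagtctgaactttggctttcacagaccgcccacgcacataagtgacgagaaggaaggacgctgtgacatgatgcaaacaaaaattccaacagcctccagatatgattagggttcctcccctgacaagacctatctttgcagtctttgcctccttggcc
Bcl2a1d: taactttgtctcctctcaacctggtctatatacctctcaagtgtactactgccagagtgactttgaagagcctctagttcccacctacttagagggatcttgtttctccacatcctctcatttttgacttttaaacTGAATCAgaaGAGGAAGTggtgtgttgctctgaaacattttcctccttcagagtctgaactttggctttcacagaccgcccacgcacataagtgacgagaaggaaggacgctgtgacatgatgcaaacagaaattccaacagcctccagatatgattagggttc

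Aligned over 256 columns, these 2 windows were 96.5% identical, with 3 mismatches and 6 gapped columns. Both held the AP-1 match, with A as its open base (TGAATCA), and the PU.1 match, and the matches do not overlap. A match to the loose AP-1 motif was found in 7.81% and a PU.1 match in 3.20% of all 32851 RefSeq start windows of that length. The third expressed copy, Bcl2a1a, held both too. A match describes these letters only.

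The likeness extends into the transcripts, so reads of the copies are shared out by estimate. Of all stretches of 50 bases, 57.6% in the Bcl2a1b transcript and 79.5% in the Bcl2a1d transcript also occur in another copy. Values of the single copies are therefore uncertain, and their sum is given beside them.

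Windows of the other called members are shown for comparison with those of the Bcl2a1 copies. They are Mcl1 (chr3:95658471-95658770, plus strand), the Bmf start furthest upstream (chr2:118549637-118549936, minus strand) and the first Bcl2l11 start (chr2:128125788-128126087, plus strand), from the same RefSeq table. Capitals mark a forkhead (FOXO) motif, GTAAACA on either strand.
Mcl1: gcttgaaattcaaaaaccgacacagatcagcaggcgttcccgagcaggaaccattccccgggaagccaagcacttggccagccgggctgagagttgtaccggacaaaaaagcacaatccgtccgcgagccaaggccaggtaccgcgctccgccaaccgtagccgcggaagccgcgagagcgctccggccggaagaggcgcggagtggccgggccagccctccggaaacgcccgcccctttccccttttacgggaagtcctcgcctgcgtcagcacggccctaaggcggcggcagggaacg
Bmf: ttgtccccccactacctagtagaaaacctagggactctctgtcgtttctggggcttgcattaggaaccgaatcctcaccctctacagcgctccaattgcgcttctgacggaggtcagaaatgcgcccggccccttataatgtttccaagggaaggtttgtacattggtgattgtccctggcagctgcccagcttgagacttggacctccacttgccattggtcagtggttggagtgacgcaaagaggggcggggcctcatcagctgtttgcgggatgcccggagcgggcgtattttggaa
Bcl2l11: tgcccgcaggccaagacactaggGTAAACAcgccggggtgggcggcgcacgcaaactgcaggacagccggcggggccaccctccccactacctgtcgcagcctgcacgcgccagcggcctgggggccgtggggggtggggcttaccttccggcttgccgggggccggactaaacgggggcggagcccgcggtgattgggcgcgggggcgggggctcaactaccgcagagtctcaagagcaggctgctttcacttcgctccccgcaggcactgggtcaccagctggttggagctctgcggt

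The FOXO motif was present in 3.65% of all windows. The Mcl1 window and this Bmf window held no match to any of 7 motifs searched on both strands. The others searched were CRE (TGACGTCA, 1.79% of all windows), the NF-kB consensus (4.51%), the SRF CArG box (1.63%) and a p53 motif (8.36%). Another of the 3 Bmf windows held an NF-kB and a p53 match, 1 of 3 Bcl2l1 windows an NF-kB match, 1 of 3 Bbc3 windows overlapping NF-kB matches, another Bbc3 window a FOXO match, and the Bax window a p53 match. The windows of Bcl2a1a, Bcl2a1b and Bcl2a1d held no NF-kB match, nor any match beside those to AP-1 and PU.1. RefSeq windows were matched for 9 members, 16 windows in all.

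At 2 hr 3 of the 5 pro-survival members were called higher: Mcl1 and 2 Bcl2a1 copies, whose reads are shared out by estimate. With the Bcl2a1 copies summed into 1 gene, 2 of 9 members were called higher in each genotype. Of the 5 pro-death genes, Bmf fell and Bcl2l11 rose when both genotypes were averaged, and the other 3 were not called. In wt cortex Bcl2a1b, Bcl2a1d and Mcl1 were called higher on the struck side and Bmf lower. These are 4 of 10 members, with Bcl2a1b and Bcl2a1d counted apart, where 2.92% of all tested genes were called, 2.73% higher and 0.184% lower. Bcl2a1d, in this and the following counts, passed the filter on low counts only through its ipsilateral libraries. The members were chosen with earlier results of these data known, so such shares are set side by side and were not tested. In cKO cortex Bcl2a1b, Bcl2a1d and Mcl1 were again called higher and none lower by edgeR, 3 of 10 members, against 2.74% of all genes (2.56% higher, 0.178% lower). Averaged over genotypes, Bcl2l11 was called higher too and Bmf lower, 5 of 10 members against 8.02% of all genes (5.99% higher, 2.03% lower). CPM of the sides did not overlap for 5 members in wt, 4 in cKO and 4 with both genotypes pooled. Of all tested genes, 19.2%, 21.9% and 5.23% did not overlap. The median log2 change of the pro-survival members, with Bcl2a1b and Bcl2a1d counted apart, was 0.77 in wt and 0.81 in cKO. With the copies as 1 gene it would lie lower, between Bcl2 and Mcl1 (0.07 and 0.77 in wt, 0.20 and 0.81 in cKO). The median of the pro-death members, which moved in both directions, was 0.07 and 0.10, and that of all tested genes −0.01 in either genotype. The mean response shares its libraries with both single responses and adds no independent evidence.

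**Figure D1:**
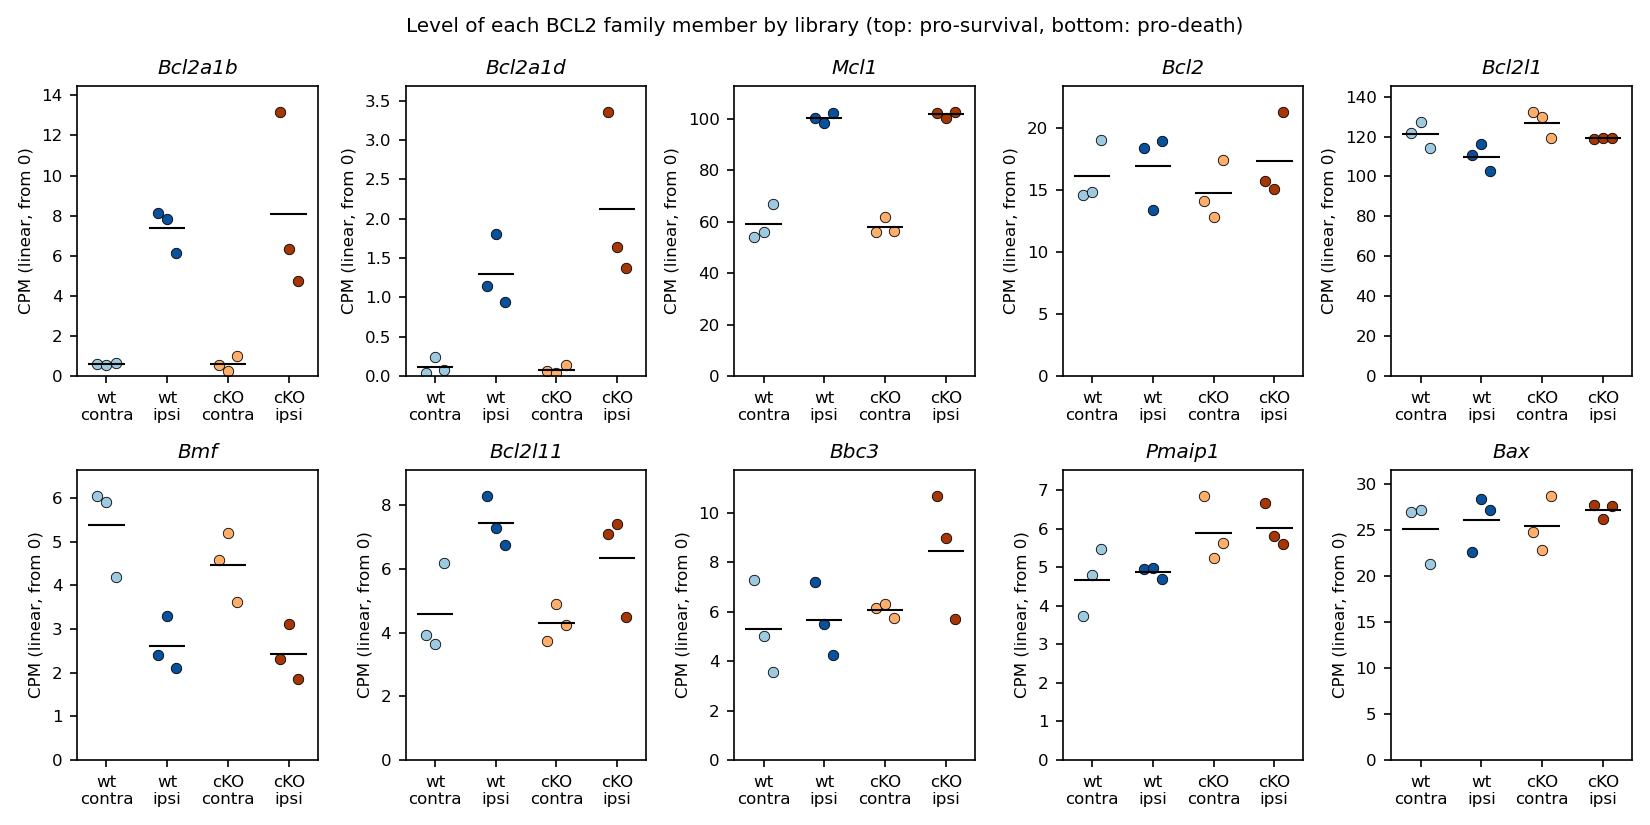
CPM of each member in the 12 libraries on linear axes from 0, with points for libraries and bars for group means (n = 3). Bcl2a1b, Bcl2a1d and Mcl1 stand higher in all 6 ipsilateral than in all 6 contralateral libraries, and Bmf stands lower.

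Bcl2a1b had the larger signal of the 2 copies. It was at 0.621, 0.553 and 0.636 CPM in wt contralateral libraries 1 to 3 and at 8.15, 7.81 and 6.13 CPM in wt ipsilateral libraries 1 to 3. It was at 0.558, 0.256 and 1.0 CPM in the cKO contralateral and at 13.2, 6.33 and 4.73 CPM in the cKO ipsilateral libraries. Every ipsilateral library was above every contralateral one, and cKO ipsilateral library 1 was the highest. The log2 change was 3.60 ± 0.39 in wt (12.1-fold, adjusted p = 3.84e-05 by edgeR) and 3.82 ± 0.40 in cKO (14.1-fold, adjusted p = 2.46e-05).

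Bcl2a1d was near the limit of detection in contralateral cortex, with 1, 7 and 2 counts in wt and 2, 1 and 3 counts in cKO. In ipsilateral cortex it had 28, 42 and 23 counts in wt (1.15, 1.80 and 0.946 CPM) and 93, 41 and 11 counts in cKO (3.35, 1.64 and 1.37 CPM). The sides did not overlap. The fitted log2 change was 3.40 ± 0.56 in wt (adjusted p = 0.00255, edgeR) and 4.76 ± 0.60 in cKO (adjusted p = 0.000175), each resting on few contralateral counts.

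Summed over Bcl2a1a, Bcl2a1b and Bcl2a1d, the copies had 9.79 ± 1.86 CPM on the struck side of wt cortex, over 0.825 ± 0.0751 CPM on the other (SD, n = 3). In cKO they had 11.8 ± 6.15 over 0.747 ± 0.471 CPM. The sum does not depend on how reads were split between these summed copies. Another copy, Bcl2a1c, is not in it and shares 10.4% of its stretches of 50 bases with the other copies. The sum rose 11.8-fold in wt (95% interval 6.74 to 20.6, adjusted p = 3.11e-05, edgeR) and 16.5-fold in cKO (9.29 to 29.5, adjusted p = 1.11e-05). Bcl2a1b held 62.3% to 80.1% of the summed counts in the ipsilateral libraries. The Bcl2a1b exons share 401 bases with Gm29094 on the same strand, which had at most 2 counts in any library.

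Markers of neutrophils, cells in which Bcl2a1 genes are known to be active, moved with the Bcl2a1 copies. Their 16 genes summed to 7.78 to 13.9 CPM in contralateral and 21.0 to 83.7 CPM in ipsilateral libraries. All 12 tested ones were called higher in the mean response, against 5.99% of all tested genes. The filter on low counts removed the others. Markers near 0 on the contralateral side could pass that filter only through ipsilateral libraries. Ly6g, a defining neutrophil gene, had no count in contralateral libraries and 1 count in each ipsilateral group. The 16 microglia markers summed to 465.5 to 513.0 CPM in contralateral and 441.9 to 591.7 CPM in ipsilateral libraries, which overlap. Among ipsilateral libraries the order of the 2 sums differed: cKO library 2 had the highest neutrophil sum and cKO library 1 the highest Bcl2a1 sum. Red cell and platelet markers (9 genes) summed to 3.03 to 244.2 CPM in contralateral and 601.6 to 2114 CPM in ipsilateral libraries. The part of these cells in the rise was not tested, and in bulk cortex more cells of a type and more RNA per cell cannot be told apart.

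**Figure D2:**
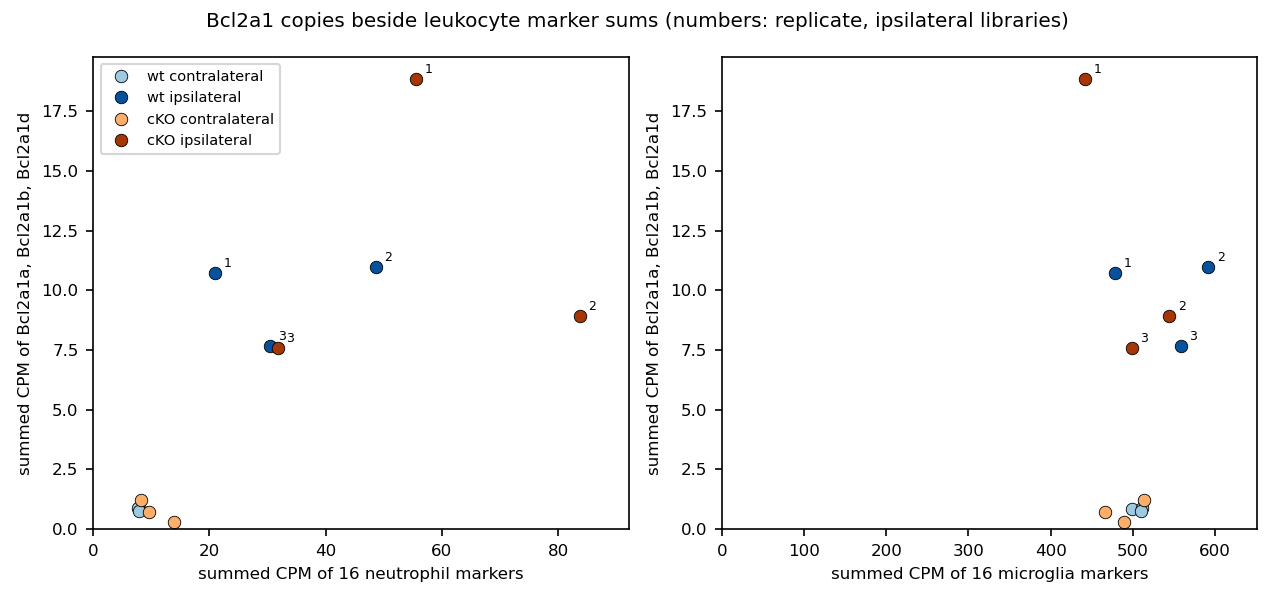
Summed CPM of 3 Bcl2a1 copies (vertical) against summed CPM of 16 neutrophil markers (left) and 16 microglia markers (right), 1 point per library, linear axes from 0. Ipsilateral libraries are higher on the Bcl2a1 and neutrophil axes, and the sides overlap on the microglia axis.

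Mcl1, a short-lived pro-survival protein whose gene responds to growth factor and stress signals, had the narrowest interval of the called members. It was at 53.9, 56.2 and 66.8 CPM in the wt contralateral and at 100.5, 98.3 and 102.2 CPM in the wt ipsilateral libraries. It was at 56.0, 61.9 and 56.5 CPM in the cKO contralateral and at 102.3, 100.5 and 102.6 CPM in the cKO ipsilateral libraries. The sides did not overlap, and the 6 ipsilateral libraries lay within 98.3 to 102.6 CPM. The log2 change was 0.77 ± 0.08 in wt (1.70-fold, adjusted p = 2.41e-05, edgeR) and 0.81 ± 0.08 in cKO (1.75-fold, adjusted p = 1.32e-05). By limma on log2(TPM + 1) Mcl1 was called higher in cKO and on average. It was not called in wt there (0.55 ± 0.14, adjusted p = 0.115).

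Bcl2 and Bcl2l1, the remaining pro-survival genes, were not called. Bcl2l1, which encodes BCL-XL and is the highest of the pro-survival members by TPM, was at 114.3 to 132.1 CPM in contralateral and 102.8 to 119.5 CPM in ipsilateral libraries. Its mean log2 change was −0.12 ± 0.05 (unadjusted p = 0.031, adjusted p = 0.166, edgeR), with a 95% interval of −0.22 to −0.01. Bcl2, the founding member, was at 12.8 to 19.0 CPM in contralateral and 13.4 to 21.3 CPM in ipsilateral libraries, with a mean log2 change of 0.14 ± 0.12 (interval −0.12 to 0.39). The Bcl2 exons overlap the antisense gene D630008O14Rik by 558 bases. That gene had no count in any library.

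**Figure D3:**
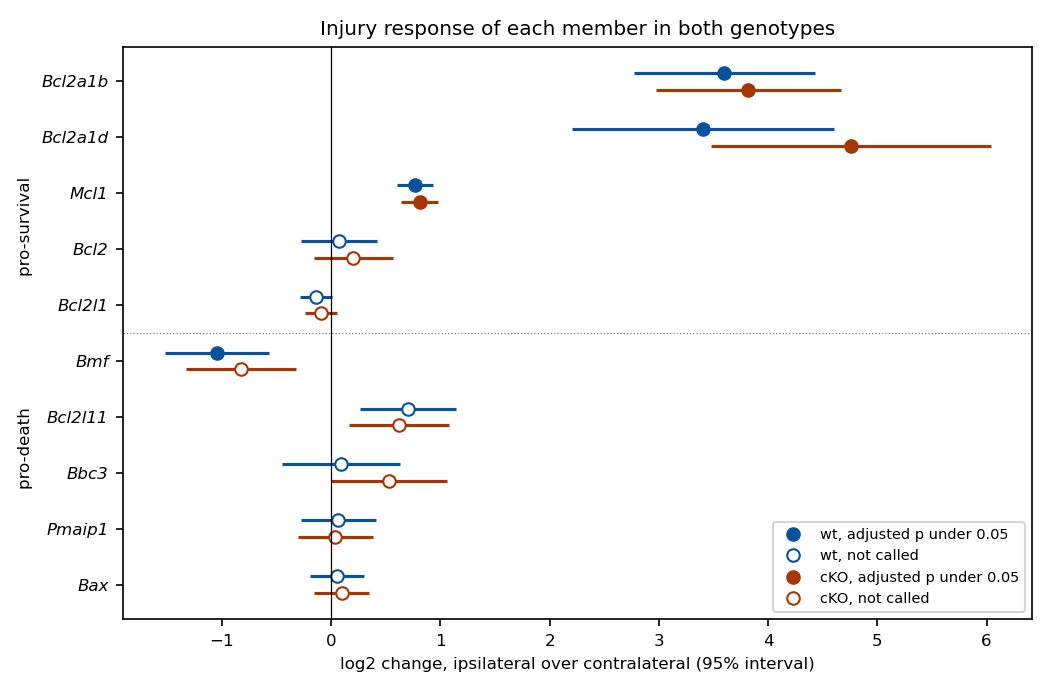
Log2 change between ipsilateral and contralateral cortex with its 95% interval for the 10 members in wt and cKO, filled where the adjusted p was under 0.05. Bcl2a1b, Bcl2a1d and Mcl1 lie right of 0 in both genotypes, Bmf lies left of 0, and the intervals of Bcl2, Bcl2l1, Bbc3, Pmaip1 and Bax span 0 in both.

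Among pro-death members the largest fall was that of Bmf, whose product is known to be held on the cytoskeleton and released by cellular stress. It was at 6.04, 5.91 and 4.19 CPM in the wt contralateral and at 2.42, 3.31 and 2.10 CPM in the wt ipsilateral libraries. It was at 4.58, 5.20 and 3.62 CPM in the cKO contralateral and at 2.31, 3.12 and 1.87 CPM in the cKO ipsilateral libraries. The sides did not overlap within or across genotypes. The log2 change was −1.05 ± 0.22 in wt (adjusted p = 0.017, edgeR) and −0.83 ± 0.24 in cKO (adjusted p = 0.0903), and −0.94 ± 0.16 on average (adjusted p = 0.00175). The call in cKO depends on the fit: DESeq2 called Bmf lower there (adjusted p = 0.0374).

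The wt call of Bmf was lost on leaving out any 1 of 4 wt libraries, contralateral 1 or 2 or ipsilateral 1 or 3 (highest adjusted p = 0.102), while the mean call held without any single library (0.000748 to 0.00765). TPM and CPM of Bmf parted in cKO ipsilateral library 3. It gave 1.57 TPM per CPM there, on 15 counts, and 0.284 to 0.428 in the other 11 libraries. By limma on log2(TPM + 1) Bmf was not called with all 12 libraries. With that library left out, an alternative chosen after its TPM was seen, Bmf was called lower on average (−0.61 ± 0.14, adjusted p = 0.018) and not in wt (adjusted p = 0.0624) or cKO (0.281).

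Bcl2l11 encodes BIM, a BH3-only protein that binds all pro-survival members. It was at 3.94, 3.63 and 6.17 CPM in the wt contralateral and at 8.28, 7.30 and 6.75 CPM in the wt ipsilateral libraries. It was at 3.73, 4.90 and 4.24 CPM in the cKO contralateral and at 7.10, 7.41 and 4.48 CPM in the cKO ipsilateral libraries. The wt groups did not overlap, and cKO ipsilateral library 3 lay among the contralateral values. Its log2 change was 0.70 ± 0.21 in wt (adjusted p = 0.0966) and 0.62 ± 0.22 in cKO (adjusted p = 0.191), neither called, and 0.66 ± 0.15 on average, which was called (adjusted p = 0.0123, edgeR).

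Bbc3 and Pmaip1 encode PUMA and NOXA, BH3-only proteins whose genes are known p53 targets, and neither was called. Bbc3 was at 7.28, 5.01 and 3.56 CPM in the wt contralateral and at 7.21, 5.49 and 4.24 CPM in the wt ipsilateral libraries. It was at 6.14, 6.31 and 5.76 CPM in the cKO contralateral and at 10.7, 8.97 and 5.72 CPM in the cKO ipsilateral libraries. The sides overlapped in both genotypes. The log2 change of Bbc3 was 0.09 ± 0.25 in wt and 0.53 ± 0.25 in cKO (adjusted p = 0.356, edgeR).

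Pmaip1 was at 3.73 to 6.84 CPM in contralateral and 4.69 to 6.67 CPM in ipsilateral libraries, with a mean log2 change of 0.05 ± 0.11 (95% interval −0.19 to 0.29). Bax was at 21.3 to 28.7 CPM in contralateral and 22.7 to 28.4 CPM in ipsilateral libraries, with a mean log2 change of 0.07 ± 0.08 (interval −0.10 to 0.25). The ranges of the sides overlapped almost fully for both. Bax exons overlap the same-strand gene Gm45808 by 192 bases. That gene had no count in any library.

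On the TPM scale Bcl2l1 was the highest member in all 4 groups, followed by Bax and Mcl1. In wt contralateral cortex they were at 95.2 ± 6.38, 58.3 ± 7.09 and 28.5 ± 4.16 TPM (SD, n = 3). Bax and Mcl1 overlapped only in cKO ipsilateral cortex, at 59.4 ± 9.09 and 48.4 ± 7.23 TPM. Bcl2a1b ranked 8 of 10 on the contralateral side of both genotypes, where its range overlapped those of Bmf and Bcl2l11. On the ipsilateral side it ranked 4, at 17.2 ± 3.81 TPM in wt and 20.6 ± 11.5 TPM in cKO, apart from Mcl1 above and Bbc3 below it.

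Pro-survival members held 62.0%, 63.3% and 67.3% of the summed TPM of all 10 members in the wt contralateral libraries and 70.9%, 68.2% and 68.3% in the wt ipsilateral libraries. They held 65.8%, 67.1% and 61.6% in the cKO contralateral and 69.4%, 67.9% and 69.6% in the cKO ipsilateral libraries. The lowest ipsilateral share, 67.9%, lay just above the highest contralateral one, 67.3%. Without the Bcl2a1 copies the shares were 61.0% to 67.0% and 63.7% to 67.5%, which overlap, and without Mcl1 they were 55.9% to 61.5% and 59.6% to 63.1%, which overlap too. Without both they were 55.1% to 61.3% on the contralateral and 53.9% to 58.4% on the ipsilateral side. These ranges overlap as well, and the ipsilateral one reached lower. No test is given for this share, because it is a score over chosen members.

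Within the 5 pro-survival members the makeup changed more than their share. Other BCL2 family genes are in neither sum. Among them Bcl2l2, Bok and Bad had means of 69.3, 57.4 and 44.6 TPM over the 12 libraries. Bcl2l1 made up 70.0% to 77.2% of the TPM of the 5 pro-survival members in contralateral and 49.7% to 58.5% in ipsilateral libraries. Bcl2a1b and Bcl2a1d together made up 0.567% to 2.34% and 9.13% to 22.6%. Mcl1 went from 19.4% to 25.2% on the contralateral side to 25.8% to 31.4% on the ipsilateral side. Bax made up 76.5% to 82.5% of the TPM of the 5 pro-death members in contralateral and 75.0% to 84.2% in ipsilateral libraries, and these ranges overlap.

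**Figure D4:**
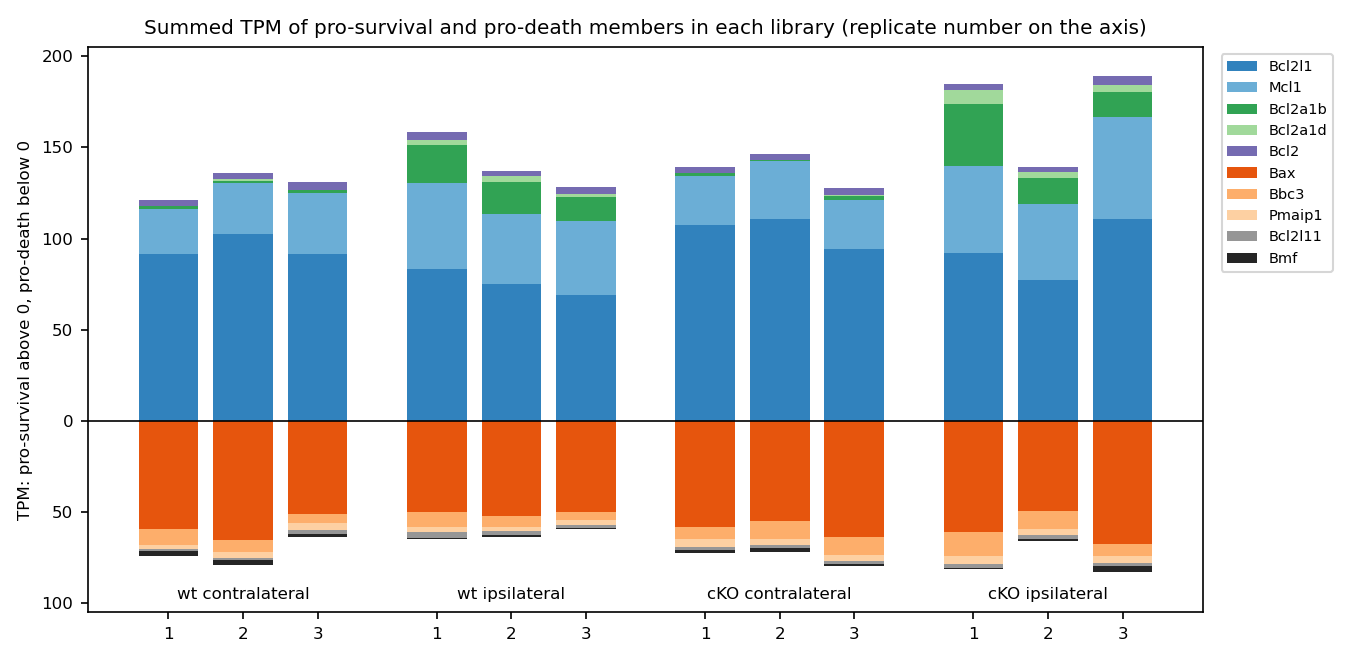
Stacked TPM of the pro-survival members (above 0) and the pro-death members (below 0) in each of the 12 libraries, linear axis. Bcl2l1 and Bax are the largest blocks, and the Bcl2a1 blocks are visible mainly in ipsilateral libraries. Sums of cKO ipsilateral library 3 run higher with its low Bc1.

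Between genotypes no member was called by edgeR in ipsilateral cortex (0 of 10, against 0% of all genes) or in contralateral cortex (0 of 10, against 0%). The injury responses of the genotypes did not differ past the test for any member either (0 of 10, against 0% of all genes). Ipsilateral CPM did not overlap between genotypes for 2 members, Bcl2l1 and Pmaip1, both higher in cKO, against 11.6% of all genes. DESeq2 called no member in these 3 comparisons. At an unadjusted p under 0.05 there was 1 member on the ipsilateral side, 1 on the contralateral side and 0 in the test of the responses. Over all genes 987, 455 and 381 had such a p. These comparisons share libraries with the injury comparisons.

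The ipsilateral member was Bbc3, with a log2 difference (cKO minus wt) of 0.63 ± 0.25 (unadjusted p = 0.0245, adjusted p = 0.775, edgeR). Its groups overlapped, since cKO library 3 at 5.72 CPM lay within the wt values. Without the filter on low counts it was called, at an adjusted p of 0.0318. The contralateral member was Pmaip1, at 4.67 ± 0.876 CPM in wt and 5.90 ± 0.835 CPM in cKO, a difference of 0.35 ± 0.16 (unadjusted p = 0.0436, adjusted p = 1).

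The interval of the difference between injury responses was narrow for Mcl1, 0.04 with a 95% interval of −0.20 to 0.28, and for Bcl2l1, 0.05 with −0.16 to 0.26. It was −0.47 to 0.92 for Bmf, −1.05 to 1.48 for Bcl2a1b and −0.71 to 3.42 for Bcl2a1d. For the Bcl2a1 sum it was −0.74 to 1.72 around 0.49. Differences of 2-fold are inside the intervals of the Bcl2a1 genes and of Bbc3 (−0.325 to 1.197), and outside those of the other members.

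The other apoptosis genes were taken from lists chosen with earlier results of these data known. Beside the counts of this and the following lists, 2.73% of all tested genes were called higher in wt, 2.56% in cKO and 5.99% on average. Lower were 0.184%, 0.178% and 2.03%. Of 11 other tested BCL2 family genes, Bcl2a1a was the 1 called, higher in both genotypes (mean log2 change 3.96 ± 0.44), and none was lower. The median of that list was −0.05, against −0.01 for all genes. Of 17 genes of the apoptosome, caspases and their inhibitors, 1 was called higher in both genotypes and none lower. On average this is near the share over all genes. The called gene was Birc3, an inhibitor of apoptosis induced by NF-kB. Birc3 went from 2.21 ± 0.275 to 6.40 ± 1.28 CPM in wt and from 1.97 ± 0.275 to 6.40 ± 1.49 CPM in cKO.

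Upstream regulators and death receptor genes moved in part. Of 18 upstream regulators, 4 were called higher in wt, 5 in cKO and 5 on average, with none lower. Jun, a stress-activated transcription factor known to act on Bcl2l11 in neurons, changed by 1.75 ± 0.08 on average. Pim1 and Pim3, survival kinases, changed by 1.88 ± 0.12 and 0.75 ± 0.06, and the co-chaperone gene Bag3 by 0.82 ± 0.09. Of 11 death receptor pathway genes, 2 were called higher in wt and 4 in cKO, with none lower. On average 4 were called: Tnf (5.43 ± 0.28), the kinase gene Ripk1 (0.64 ± 0.09) and the TNF receptor genes Tnfrsf1a (0.51 ± 0.08) and Tnfrsf1b (0.83 ± 0.17).

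Of 15 tested p53 target genes, 4 were called higher in each genotype and 5 on average, with none lower. Btg2, an antiproliferative early response gene, changed by 2.07 ± 0.10 on average, and Tnfrsf10b, a death receptor gene, by 1.49 ± 0.23. The cell cycle inhibitor gene Cdkn1a changed by 0.71 ± 0.06 and the kinase gene Plk2 by 0.31 ± 0.05. Beside these, the p53 targets among the members, Bbc3, Pmaip1 and Bax, were not called.

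NF-kB feedback genes had the highest share of called genes among these lists. They are induced by NF-kB, which is also known to drive Bcl2a1 genes in leukocytes. The windows of the Bcl2a1 copies held no NF-kB match, and a part of NF-kB in their rise was not tested. Of the 11 feedback genes, 8 were called higher in wt, 9 in cKO and 10 on average. None was lower, and the mean-response median was 0.98. Nfkbiz changed by 2.99 ± 0.11 on average, Tnfaip3 by 2.28 ± 0.11, Rel by 1.91 ± 0.14 and Nfkb1 by 0.84 ± 0.09.

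**Figure D5:**
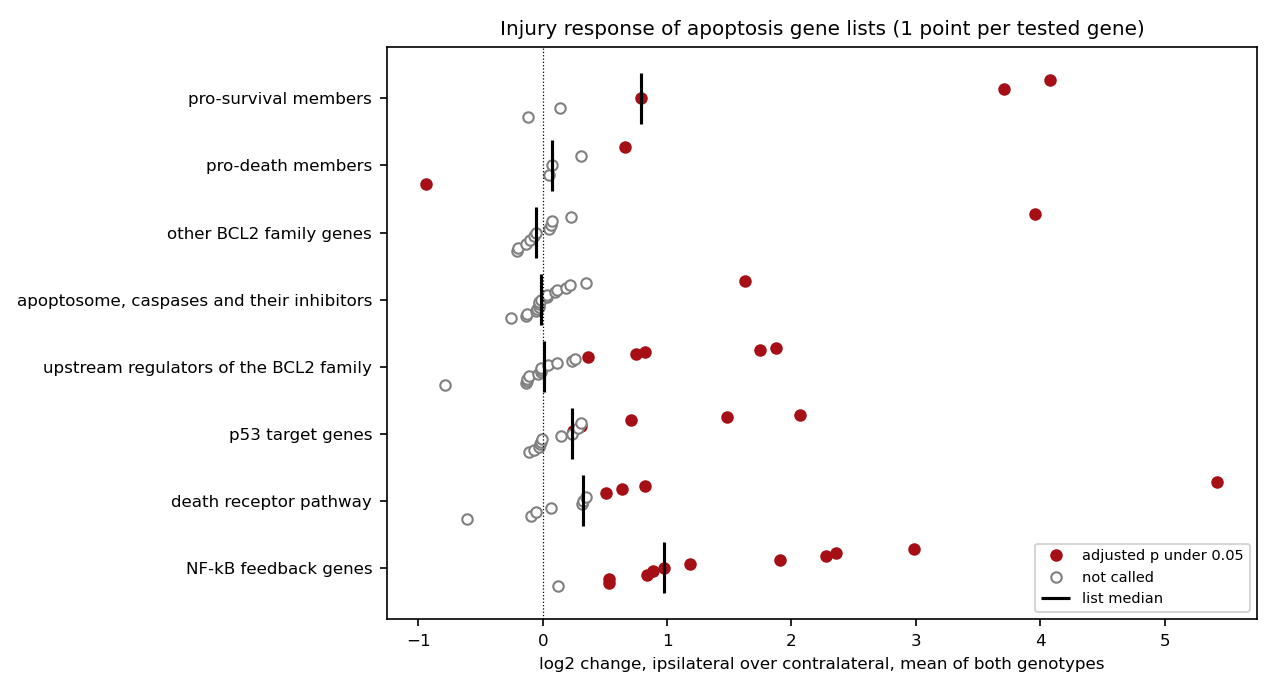
Log2 change between ipsilateral and contralateral cortex, averaged over genotypes, for each tested gene of the members and 6 apoptosis lists, filled where the adjusted p was under 0.05, with bars at list medians. The NF-kB feedback list has a median of 0.98 and the apoptosome list one of −0.02.

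The genes most like each called member were found by the root mean square difference in centred log2 CPM over the 12 libraries, among 14496 genes. For Bcl2a1b they were C5ar1, Emp1 and Icam1 (0.47, 0.52 and 0.54), and for Bcl2a1d Emp1, Plaur and Bcl2a1b (0.46, 0.48 and 0.49). For Mcl1 they were Vegfa, Pvr and Klf6 (each 0.09). Vegfa went from 35.4 ± 5.52 to 62.4 ± 2.53 CPM in wt. For Bmf they were Tmem119, Gm43848 and P2ry1 (0.28, 0.30 and 0.33), and for Bcl2l11 Cpeb4, Ets1 and Edn1 (0.13, 0.15 and 0.16). The members' own SD on that scale was 1.90 (Bcl2a1b), 1.81 (Bcl2a1d), 0.42 (Mcl1), 0.57 (Bmf) and 0.43 (Bcl2l11). The likeness of Bcl2a1b and Bcl2a1d is not independent of how their shared reads were split. Tmem119, a microglia marker, was called lower, by −0.71 ± 0.13 in wt and −0.69 ± 0.13 in cKO on the log2 scale. It was the 1 microglia marker of 16 called lower. C1qb was called higher on average (0.30 ± 0.08), 11 of the 16 were above 0 there, and the list's median was 0.07.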

How the data were processed

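RNA of 12 libraries (4 groups of 3) was prepared with a stranded mRNA kit, per the labels' protocols. Trim Galore 0.6.4, STAR 2.7.1a, RSEM 1.2.28, DESeq2 1.36.0 and mm10 are named in the submitters' processing notes. The annotation and strand setting are not given in the sources used here. The authors deposited expected counts per gene, as whole numbers, and TPM per gene. Symbols and overlaps came from GENCODE M21.

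The members and lists were chosen with earlier results of these data known. Genes were kept by filterByExpr (minimum count 10, minimum total 15). Counts were scaled by TMM and fitted by edgeR 4.0.16 (R 4.3.3, quasi-likelihood) over all 4 groups, with Benjamini-Hochberg adjustment and a threshold of 0.05. Alternatives were DESeq2 1.42.0, limma 3.58.1 on log2 TPM with 1 or 0.1 added, other scalings and filters, each library left out and the replicate number as a block. All 10 members were named. Up to 4 called genes per list, by smallest adjusted p, were named, and the 3 genes most like each called member among those of at least 1 CPM. A count of 3, the floor used, is 0.0894 to 0.377 CPM and covers counting error only. On simulated counts of 16836 genes, 84.5% of 200 genes changed 2-fold were recovered in the wt and 86.0% in the cKO injury comparison, 84.5% and 87.5% for cKO against wt on the ipsilateral and the contralateral side, 96.5% for the mean and 77.5% for the difference of responses.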

Additional observations from a re-analysis of the deposited data

How the results depend on the processing

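Of 1453 member values under alternatives, 1423 kept their call, 19 lost it, 11 gained one and none reversed; 107 values not called had another sign. Without a low-count filter 6 members were called in the cKO injury response, among 856 genes higher and 112 lower, and 1 (Bbc3) between genotypes in ipsilateral cortex, among 119 higher and 104 lower where the filter left 0. On log2(TPM + 1), log2(TPM + 0.1) and log2(TPM + 1) without a TPM filter, limma called 2, 2 and 1 members in wt. On average it called 3, 3 and 3, and Bmf and Bcl2l11 lost their mean calls. In wt Bmf and Mcl1 lost their calls in each of these fits (Mcl1 adjusted p = 0.115, 0.117 and 0.204). Bcl2a1d lost its wt call without the TPM filter (0.0716). With cKO ipsilateral library 3 left out of the log2(TPM + 1) fit, chosen after its Bmf TPM was seen, 3, 2 and 6 were called in wt, in cKO and on average. Mcl1 was then called in wt and not in cKO (adjusted p = 0.0504). The 6 came with 382 genes higher and 2582 lower of 14663, against 283 and 121 of 14730 with that library; Bmf and Bcl2l11 were among them and Bcl2l1 was added. The cause was not tested. Leaving out 1 library gave 3 to 5 members in wt, 3 in cKO, 5 on average and 0 in the other comparisons. Bcl2l11 was called in wt without wt contralateral library 3 (adjusted p = 0.01), without a filter (0.00289) and by DESeq2 (0.0403). Over all genes the mean response had 1009 higher and 341 lower, and 873 and 584 with scaling by library totals. In wt, edgeR called 460 higher and 31 lower, 248 and 2 without contralateral library 2, 687 and 174 without contralateral library 3, 852 and 139 without a filter and 613 and 153 by DESeq2. A fit of the compared groups alone could not be had for the mean and the difference, which need all 4 groups.

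Equal replicate numbers were not taken as pairs. Same-numbered sides correlated at −0.002 to 0.0941 in wt and 0.0568 to 0.092 in cKO over all 16836 genes, under the 0.1 required of every pair. This depends on the genes used: 3 further gene sets, at a mean of at least 1, 10 and 50 CPM, were looked at after the fits had been seen, 4 in all. The wt pairs failed in all 4 (lowest −0.0043, −0.301 and −0.45 in the added sets). The cKO pairs failed at 1 CPM (lowest 0.0851) and passed at 10 and 50 CPM (0.235 and 0.195), so for cKO the question is unsettled. In cKO each library correlated best with its own number, a hint from the data only. With the replicate block Bmf in cKO was called (−0.88, adjusted p = 0.00817, and 0.0179 with the block within genotype, against 0.0903 unblocked). The block gave 4, 4 and 5 members in wt, in cKO and on average, against 4, 3 and 5. Depth limits Bcl2a1d most, at 1 to 7 counts in contralateral libraries.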
